A study of Caenorhabditis elegans with 4 samples.

Results

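The genes puf-5, cpg-2 and msp-152 encode products of the hermaphrodite germ line: an oocyte RNA-binding protein, an eggshell proteoglycan and a major sperm protein. They were taken by name from 4 deposited tables, each of which compares a pair of RNA-seq libraries made from whole Caenorhabditis elegans at the young adult stage. All 3 were found, among 302 distinct gene names in 393 rows. They were picked as germline genes already known to be listed between the strains, so that their listing, direction and ratio below are a description and not a test.

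The animals were of 2 strains, N2 and VZ1, fed on OP50 bacteria and collected as young adults. N2 is the standard wild-type strain, and VZ1 is known as a strain with a deletion in trx-1, which encodes a thioredoxin of a pair of sensory neurons. Each strain was left unstressed or kept for 5 h in 10 mM NaAs (sodium arsenite, an oxidative stressor), which gives 4 groups with 1 library each and no replicates. Whole populations were extracted, so that fewer germ cells of a type and less RNA per cell cannot be told apart. The values are FPKM, fragments scaled to the exon length of a gene and to the fragments mapped. The depth of the libraries is unknown. A table lists only genes that the authors called between its 2 libraries, so an unlisted gene has no value there.

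In the C. elegans hermaphrodite the germ line makes sperm first and then oocytes for the rest of its life. PUF proteins bind the 3′ ends of messenger RNAs and repress them, and PUF-5 acts with its relatives in growing oocytes. Oocytes take up yolk made by the intestine, and at fertilisation they build an eggshell of layers that include chitin and the chondroitin proteoglycans CPG-1 and CPG-2. Major sperm proteins form the motile cytoskeleton of the amoeboid sperm and, once released, signal oocytes to mature and ovulate.

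The oocyte gene puf-5 (WBGene00004241) lay on chromosome II at 8575391 to 8577659 of the ce10 build, as the tables give it. The transcript annotated in WBcel235 has 5 exons, 2069 bases, 553 codons and a 3′ untranslated region of 371 bases. Its level was 35.9 FPKM in unstressed N2 and 7.002 FPKM in unstressed VZ1. The level was thus 5.13-fold lower in VZ1 (log2 −2.36). The authors' deposited table gives it a q of 0.0141, for a comparison of 2 libraries. This is the smallest q in that table, but other rows share it, so it does not set puf-5 apart. The other 3 tables do not list puf-5, so its level under arsenite is not known in either strain.

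The eggshell gene cpg-2 (WBGene00015102) lay on chromosome III at 7102016 to 7104034 of ce10. Its annotated transcript has 5 exons, 1723 bases and 524 codons, and is read from the minus strand. Its level was 126 FPKM in unstressed N2 and 30.2 FPKM in unstressed VZ1, a 4.17-fold lower level in VZ1 (log2 −2.06). The q in the authors' deposited table is again 0.0141. No stress table and no table of stressed animals lists cpg-2.

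Both oocyte genes were higher in unstressed N2 than in unstressed VZ1, and the log2 ratio of puf-5 minus that of cpg-2 was −0.30. With 1 library in each group, no error can be put on that difference. Per length of transcript, cpg-2 stood 3.51-fold above puf-5 in unstressed N2 and 4.31-fold above it in unstressed VZ1, so their order was the same in both strains.

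The sperm gene msp-152 (WBGene00003470) lay on chromosome II at 4933012 to 4933396 of ce10. It is annotated as 1 exon of 384 bases with no untranslated region, which encodes 127 residues. Its level was 212 FPKM in stressed N2 and 23.6 FPKM in stressed VZ1. The level was 8.97-fold lower in VZ1 (log2 −3.16), and the authors' deposited table gives a q of 0.0133. That is the smallest q it holds, but other rows share it, so msp-152 is not set apart by it. The table of the unstressed strains does not list msp-152, and neither stress table does, so no level without arsenite can be set beside these.

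**Figure D1:**
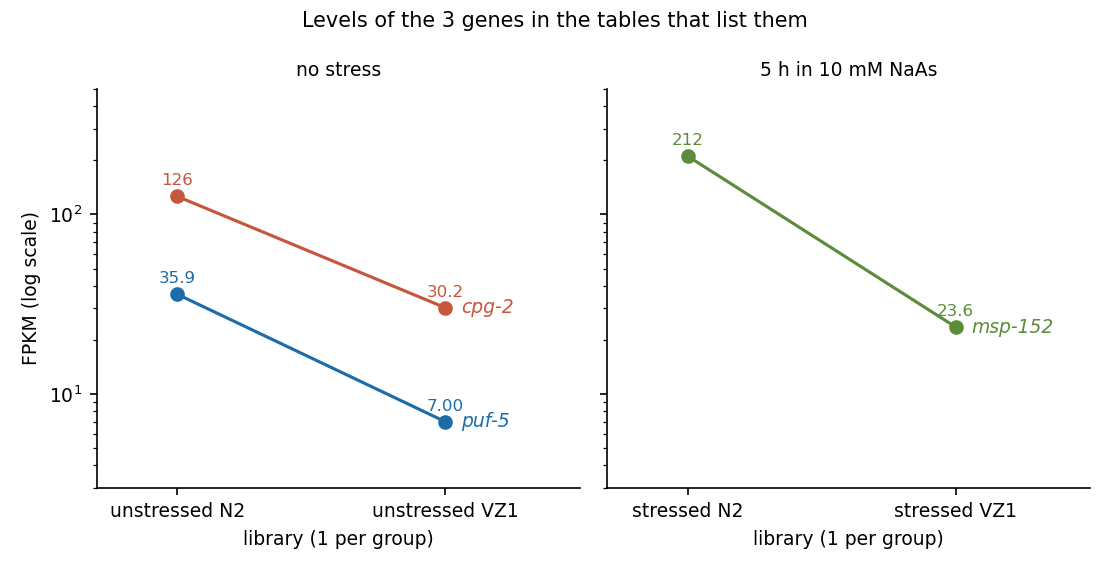
FPKM (log scale) of puf-5 and cpg-2 in the unstressed libraries (left) and of msp-152 in the stressed libraries (right), 1 point per library, joined between N2 and VZ1. Each gene is lower in VZ1, and none of the 3 has a value in both panels.

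The 3 genes differ in where they lie among the other rows of their table. Of the 61 rows of the unstressed comparison that are above 0 in both libraries, puf-5 ranked 49 and cpg-2 ranked 60 by the size of the log2 ratio, and only 1 row had a smaller ratio than cpg-2. The median log2 ratio of the rows lower in unstressed VZ1 was −3.11, so both oocyte genes differed less than the median of that group. In the stressed comparison msp-152 ranked 27 of 66, with a ratio beyond the median of −2.85 of the rows lower in VZ1. Levels in N2 were not extreme either, with cpg-2 at place 32 and puf-5 at place 49 of 63 rows, and msp-152 at place 31 of 73.

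**Figure D2:**
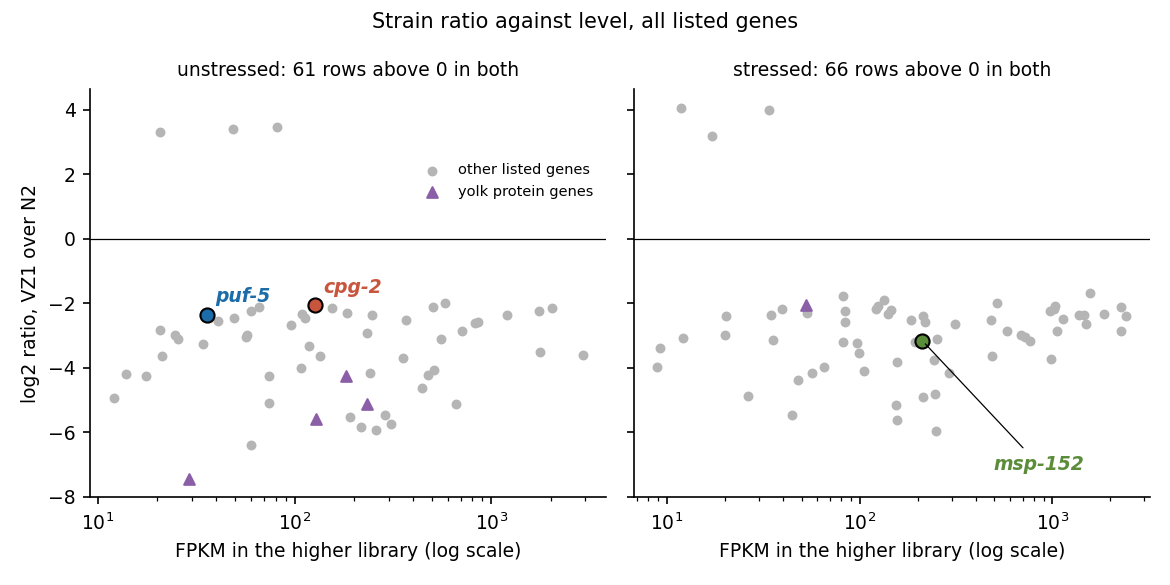
The log2 ratio of VZ1 over N2 against the FPKM of the higher library (log scale) for every row above 0 in both libraries, unstressed (left, 61 rows) and stressed (right, 66 rows); grey points are other listed genes and triangles yolk protein genes. puf-5 and cpg-2 lie near the upper edge of the lower cloud, at log2 −2.36 and −2.06, and msp-152 lies inside it, at −3.16.

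The rows nearest in ratio to each gene, over 2 libraries, were of mixed kinds. For puf-5 they were R12E2.7 (1199 and 234.7 FPKM in N2 and VZ1), the collagen gene col-91 (247 and 47.6 FPKM) and C05E7.2 (109 and 21.4 FPKM), all within 0.0172 of its log2 ratio. For cpg-2 they were the collagen genes col-145 (507 and 117 FPKM) and col-58 (66.0 and 15.2 FPKM) and R12E2.14 (2035 and 464 FPKM). For msp-152 they were the cuticle gene rol-1 (768 and 84.8 FPKM), C30H6.5 (35.4 and 3.996 FPKM) and the transthyretin-related gene ttr-14 (194 and 21.3 FPKM). No germline gene of the lists below is among these rows.

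The rest of the germline lists was not listed with them. Of the 12 annotated PUF family genes, which include puf-6 and puf-7 and the sperm-oocyte switch genes fbf-1 and fbf-2, only puf-5 was listed, lower in unstressed VZ1. Of the 22 annotated oocyte and eggshell protein genes only cpg-2 was listed, also lower in unstressed VZ1. That list holds its partner cpg-1, the eggshell proteoglycan gene cpg-3, the chitin synthase gene chs-1, the yolk receptor gene rme-2 and the oocyte surface genes egg-1 and egg-2. None of 24 oocyte and germline RNA-binding regulators was listed in any table, among them the oocyte maturation genes oma-1 and oma-2 and the translational repressor gene gld-1. For comparison, 0.416% of the 14419 genes tested between the unstressed strains were listed as lower in VZ1. The members were chosen because they are listed, so their count is not read against that share. At that share lists of such lengths would hold very few listed genes or none, so the absence of the rest is not read as a result either.

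The sperm genes were counted in the same way. Of 35 annotated major sperm protein genes, 31 of them protein-coding, msp-152 was the only one listed, and 0 of 70 other sperm genes were listed in any table. Between the stressed strains 0.488% of the 14358 genes tested were listed as lower in VZ1. Here too, lists of these lengths would hold very few listed genes or none at that share. Of the 31 protein-coding major sperm protein genes 28 have the coding length of msp-152 and all 31 have 1 exon. Genes of this family are near-identical in sequence, so that a read may fit several of them, and the value of 1 member is uncertain because it depends on how the authors' software shared out such reads. The other 30 have no value in any table, and no level of the family as a whole can be given. Of the 163 annotated germ-cell genes in the 5 lists 3 were listed in any table, so the tables do not show how the germ line as a whole stood in either strain.

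**Figure D3:**
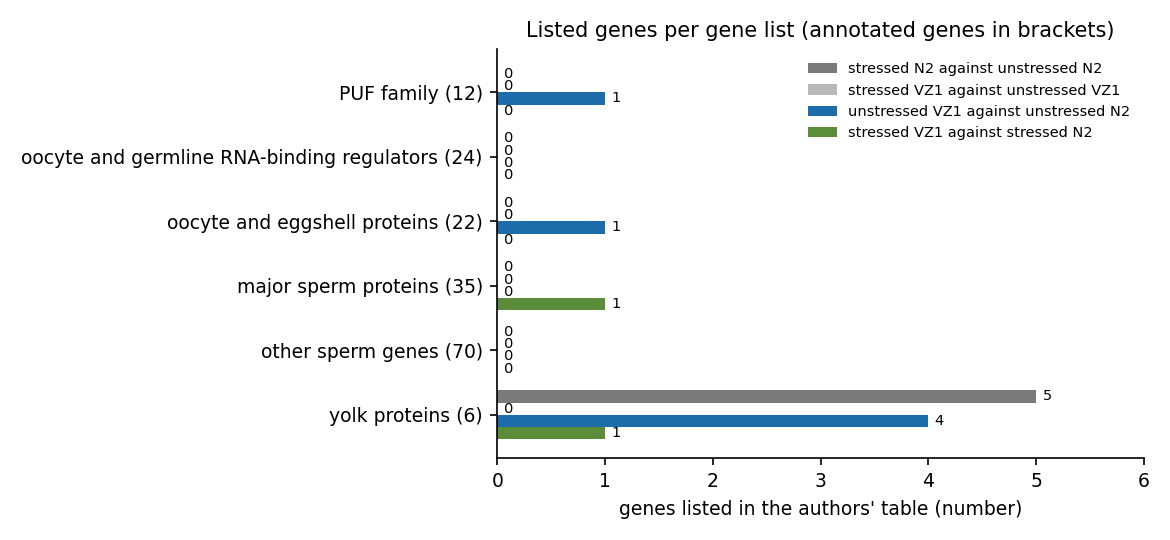
Number of genes of each list (annotated genes in brackets) that each of the 4 tables lists. Each of the 5 germ-cell lists has 1 listed gene at most in any table, while the yolk protein list holds 5, 0, 4 and 1.

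No gene of the 5 germ-cell lists was in a stress table. The stress tables list 1.05% of 14397 genes tested in N2 and 0.735% of 14420 in VZ1, in either direction. They list 0 of the 163 annotated genes of those lists. At such shares 163 genes would hold very few listed genes or none, so the 0 is not read as a result about germ-cell genes. That 0 rests on the authors' own test of 2 libraries, and unadjusted p-values of unlisted genes are not in the tables used here. In the table of stress in N2, among rows whose higher library lay within 2-fold of the 35.9 FPKM of puf-5 in unstressed N2, the smallest absolute log2 ratio listed was 2.003. Around the 126 FPKM of cpg-2 in unstressed N2 it was 2.08, as it was around the 212 FPKM of msp-152 in stressed N2. These sizes come from listed rows only and set no limit of listing. A smaller or a larger change in N2 at such levels could have gone unlisted. The levels of puf-5 and cpg-2 under arsenite and that of msp-152 without it are not known, so no such size can be given for the comparisons that rest on them.

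The yolk protein genes, expressed in the intestine and not in germ cells, were listed beside the oocyte genes. In the unstressed comparison 4 of 6 were lower in VZ1, with log2 ratios from −4.26 for vit-2 to −7.45 for vit-5. Each was further from 0 than the ratios of puf-5 and cpg-2. The ratio of vit-5 rests on 0.166 FPKM in unstressed VZ1, below 1 FPKM, so its size is uncertain. Beside msp-152, in the stressed comparison, only vit-6 was listed (52.3 and 12.6 FPKM in N2 and VZ1). Within N2 5 of the 6 yolk genes fell under arsenite, among them vit-6 (236 to 51.8 FPKM), vit-2 (186 to 28.8 FPKM) and vit-4 (98.9 to 0.603 FPKM), in the authors' deposited table. The size of the fall of vit-4 is uncertain, as its level in stressed N2 was below 1 FPKM. In the unstressed comparison the same unstressed N2 library stood at 129 FPKM for vit-4. No test of the difference between yolk genes and oocyte genes was possible with these libraries.

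The surroundings of msp-152 differ from those of both oocyte genes. In the tables' coordinates its locus ends 526 bp before that of gst-30, a glutathione S-transferase gene (chromosome II, 4933922 to 4935002) that rose from 1.10 FPKM in unstressed N2 to 1238 FPKM in stressed N2, with a q of 0.0477 in the authors' deposited table. In WBcel235, msp-152 is on the plus strand and gst-30 on the minus strand, so that their 3′ ends face each other, with 472 bases between them. The strandedness of the libraries is not given in the sources used here. Neither the table of stress in VZ1 nor that of the stressed strains lists gst-30, and its level in stressed VZ1 is not known. The part of gst-30 in the level of msp-152 was not tested. The nearest other major sperm protein gene on chromosome II is 16464 bp away.

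**Figure D4:**
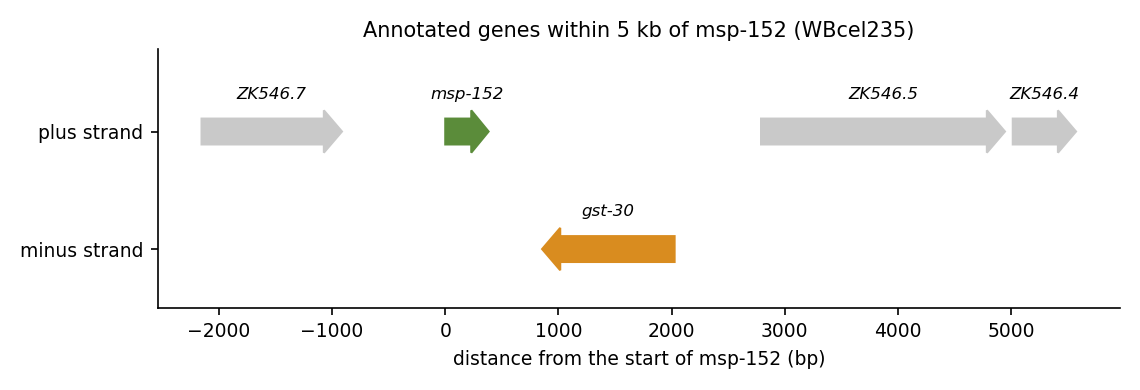
Annotated genes within 5 kb of msp-152 in WBcel235, by distance from its start (bp) and by strand, with arrows in the direction of transcription; green is msp-152, orange is gst-30, which the N2 stress table lists, and grey genes are in no table. The arrows of msp-152 and gst-30 point at each other.

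Few rows of the strain tables lay as close to a gene of a stress table. The count below was not among the planned results, includes msp-152 itself and is a description, not a test. Leaving out overlapping loci and rows of the same gene, 2 of the 73 rows between the stressed strains lay within 1000 bp of a locus of a stress table. Besides msp-152 this was H23N18.5, 405 bp from ugt-13, which was chosen for mention after its value was seen. Between the unstressed strains it was 1 of 63, vit-4, 467 bp from T27A10.8. The nearest locus of a stress table was 129676 bp from puf-5 and 1132837 bp from cpg-2.

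The 3 values also rest on unlike amounts of sequence. FPKM multiplied by the annotated exon length in kb gives an approximate relative number of fragments, without the correction for fragment length. The exon lengths are those of WBcel235 and may differ from the lengths that the authors used. By this measure puf-5 had 74.3 in unstressed N2 and 14.5 in unstressed VZ1. The gene cpg-2 had 217 and 52.0 in the same libraries. The short gene msp-152 had 81.3 in stressed N2 and 9.06 in stressed VZ1, on the separate scale of its own table.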

How the data were processed

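RNA-seq tables from whole worms of 4 groups with 1 library each were used. The submitters' processing notes name ce10 as the genome build and Cufflinks, TopHat and Bowtie2 as tools. Tool versions, strandedness and gene annotation were not given in the sources used here. For each pair of libraries the authors deposited, per the file headers, an FPKM value per library and a p-value and q-value per gene, in the layout of Cuffdiff. Only rows marked significant are in the tables. FPKM values were scaled by the authors within each pair.

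Log2 ratios were computed here as VZ1 over N2, or stressed over unstressed, with no pseudocount, in Python 3.11.15. Numbers of genes tested were worked back from p, q and rank, a step tested on simulated data. No test across libraries was made. Names, exon structure, strand and neighbours came from RefSeq and Ensembl release 115 annotation of WBcel235, whose coordinates were not mixed with ce10. The members, the gene lists and the naming rule (the members, listed genes of the lists, yolk genes and the 3 rows nearest in log2 ratio) were chosen with earlier results of these data known. Protein and promoter sequences were not used here.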

Additional observations from a re-analysis of the deposited data

How the results depend on the processing

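Under a pseudocount of 1 FPKM the log2 ratios were −2.21 for puf-5, −2.03 for cpg-2 and −3.11 for msp-152. Adding the same amount to both libraries cannot change which is higher, so only the size of the ratios could move. With that pseudocount and rows at 0 included, puf-5 ranked 53 and msp-152 ranked 23 by size of ratio, and the rank of cpg-2 was the same. All 80 counts of listed genes were the same under 4 settings. These were current gene symbols, at least 1 FPKM in the higher library, loci of 1 gene name, or the authors' q at or below 0.02. Most counts were 0, and a 0 cannot change under the settings that only leave out rows. The listed members pass each of those filters, so this sameness was largely fixed in advance and is no sign of robustness. The smallest listed ratios were taken around the level of each gene in N2, whatever the table. A 3-fold in place of a 2-fold window around that level, chosen after seeing the data, lowered the smallest listed absolute log2 ratio to 1.77 between the stressed strains around the N2 levels of puf-5 and msp-152, to 1.98 between the unstressed strains at that of msp-152, and to 2.01 for stress in N2 at that of cpg-2, and changed none of the other 8. The deposited fold column holds error text and was not run. No paired analysis was possible because each group has 1 library, and for the same reason no library could be left out. The depth of the libraries is unknown, so no detection limit can be given.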

Other observations

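The gene T10E9.3 is now named cpg-22, 1 of 13 genes with a cpg symbol, of which 7 are in the oocyte and eggshell list and cpg-22 is not. It was chosen for mention after its values were seen. Its level was 118 FPKM in unstressed N2 and 11.7 FPKM in unstressed VZ1 (log2 −3.32), and 83.8 and 14.02 FPKM in stressed N2 and VZ1 (log2 −2.58). Its locus is wider in the unstressed table (chromosome I, 6534117 to 6541165) than in the stressed table (6534117 to 6539030). The symbol alone does not place it in the eggshell, and no role is given to it here. It is thus the cpg gene listed in both strain comparisons, while cpg-2 is listed without stress.

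C08F11.11, now named ule-4 and likewise chosen after its values were seen, was also lower in VZ1 in both conditions. It stood at 705 and 97.2 FPKM without stress (log2 −2.86) and at 720 and 87.0 FPKM with stress (log2 −3.05) in N2 and VZ1. The symbol stands for expression in the uterine lumen. The uterus is somatic and not part of the germ line, but the symbol alone does not show which cells make the RNA.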
